A study of Solanum lycopersicum with 18 samples.

Results

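The comparison described here is the difference between the responses of 2 tomato genotypes to methyl jasmonate (MeJA): the change from mock to MeJA in seeds of Stupicke minus the change from mock to MeJA in seeds of Criollo. Its members are the 12 RNA-seq libraries of these genotypes, of 18 libraries in the series, and the 6 Micro-Tom libraries were kept out of the fit because their spread is larger. Criollo is a small-fruited and Stupicke a large-fruited cultivar, both parents of a tomato mapping population, and their seeds came from plants grown in a greenhouse. Each genotype had a mock group, with water and no elicitor added to the priming solution, and a MeJA group, with 2 mM MeJA in it, and there were 3 biological replicates of 30 whole seeds in each of the 4 groups. All 12 sets of mature dry seed were held for 48 h in the dark in a polyethylene glycol solution that limits water uptake. They were dried again for 48 h before RNA was extracted, so every value is from a primed and re-dried seed, the mock groups included. Each genotype is a single cultivar, and in whole seeds fewer cells of a type and less RNA per cell cannot be told apart.

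Jasmonates are lipid-derived hormones that switch on defence genes. In cells without the hormone, JAZ repressors (jasmonate ZIM-domain, members of the TIFY family) hold transcription factors such as MYC2 inactive. The bioactive conjugate of jasmonic acid brings JAZ proteins to the F-box receptor COI1 for degradation, and the released factors transcribe, among others, the JAZ genes themselves and the genes of jasmonate synthesis. In seeds this hormone meets abscisic acid (ABA), which holds the embryo in the mature, desiccation-tolerant state marked by storage proteins and late embryogenesis abundant (LEA) proteins, and in tomato and its relatives the sterol pathway also feeds the steroidal glycoalkaloids.

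The 12 libraries held 19428866 to 20560389 estimated reads each. Over all genes the first principal component separated the genotypes (63.5% of the variance) and the second separated mock from MeJA (13.8%). Replicates of a group correlated at 0.973 to 0.992 in log2 CPM (counts relative to a common library total), and no pair was as close as sampling noise alone would make it. Stupicke mock replicate 3 stood apart from its group, at 91.6 on the first component against 42.4 and 47.5 for the others. The 38 seed storage and LEA genes that the study described and that were tested summed to 11930 to 85019 CPM in each library. The 3 such photosynthesis genes summed to at most 7.52 CPM. Both sums leave out genes without a description, so they are not totals of their classes. The 3 fruit flesh markers tested summed to between 25.2 and 50.8 CPM, with the defining gene polygalacturonase-2a too low to be tested.

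Of 19149 genes tested, 7 differed in their MeJA response between the genotypes at an adjusted p under 0.05 (edgeR's quasi-likelihood test with Benjamini-Hochberg adjustment), which is 0.0366% of the genes. A gene is termed called where it passed this edgeR test, unless another tool is named. The response was higher in Stupicke for 1 gene (0.00522%) and lower for 6 (0.0313%). At an unadjusted p under 0.05 the difference was above 0 for 1165 genes and below 0 for 1508. DESeq2, the tool of the study, called 296 genes on the same libraries, 52 higher and 244 lower, among them all 7, and limma voom called 0. Leaving out any one library gave between 0 and 7 calls, with 0 without Criollo mock replicate 1 or 3, Stupicke mock replicate 1 or Stupicke MeJA replicate 3, 1 without Criollo mock replicate 2, Criollo MeJA replicate 2 or Stupicke mock replicate 2 or 3, 2 without Criollo MeJA replicate 1 or Stupicke MeJA replicate 2, and 3 without Stupicke MeJA replicate 1. The 7 calls without Criollo MeJA replicate 3 included 4 of the 7 genes reported here. The call without Stupicke mock replicate 2 included 0 of them, and no other fit that left out 1 library included more than 1. The log2 differences of all 7 genes kept their sign in all 25 alternative settings.

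Each response on its own involved many more genes. In Criollo 1429 genes changed under MeJA (7.46%), 962 higher (5.02%) and 467 lower (2.44%). In Stupicke 347 genes changed (1.81%), 313 higher (1.63%) and 34 lower (0.178%). Leaving out 1 library moved the Criollo count to 506 without Criollo mock replicate 2, 603 without Criollo mock replicate 1, 604 without Criollo MeJA replicate 2, 809 without Criollo MeJA replicate 1 and 2486 without Stupicke mock replicate 3. The Stupicke count moved to 225 without Stupicke mock replicate 1 and 230 without Stupicke mock replicate 2, and was at most 408. The gap between 1429 and 347 is not a test of the difference, since a gene past the threshold in one genotype and short of it in the other is not shown to differ.

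Of the 7 genes, 2 encode enzymes of sterol synthesis, and they differed in opposite directions. Squalene synthase (Solyc01g110290.3.1), which joins farnesyl diphosphate units into squalene and so commits carbon to sterols, measured 24.5, 26.5 and 25.2 CPM in the Criollo mock replicates and 44.5, 45.8 and 52.1 CPM under MeJA. In Stupicke it measured 21.0, 20.8 and 16.3 CPM in mock and 72.0, 92.4 and 83.2 CPM under MeJA. The mock and MeJA libraries were apart in both genotypes, and the Stupicke MeJA libraries were the highest of the 12. The gene rose 1.87-fold in Criollo (adjusted p 0.000644) against 4.26-fold in Stupicke (adjusted p 2.01e-06), a log2 difference of 1.19 (SE 0.16, 95% interval 0.84 to 1.54, adjusted p 0.0393).

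Delta(7)-sterol-C5(6)-desaturase (Solyc02g086180.4.1), which introduces a double bond into the sterol ring system late in the pathway, measured 46.1, 40.6 and 49.5 CPM in Criollo mock and 261.5, 203.6 and 212.8 CPM in Criollo MeJA. The Stupicke values were 47.1, 52.1 and 79.6 CPM in mock and 76.5, 86.5 and 84.5 CPM under MeJA. All 3 Criollo MeJA libraries lay above every other library, and in Stupicke the groups overlapped because mock replicate 3 was higher than MeJA replicate 1. The rise in Criollo was 4.98-fold (adjusted p 1.6e-05), the Stupicke value was 1.38-fold (adjusted p 0.298), and the log2 difference was -1.85 (SE 0.24, 95% interval -2.37 to -1.32, adjusted p 0.0393). Without Stupicke mock replicate 3, the overlapping library, the log2 difference was -1.58 with an adjusted p of 0.0141.

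Among the called genes, the largest difference belonged to a gene of abscisic acid synthesis. The 9-cis-epoxycarotenoid dioxygenase Solyc05g053530.1.1, a member of the family that cleaves carotenoids to the precursor of ABA, measured 1.10, 0.90 and 0.684 CPM in Criollo mock (15 to 24 reads) and 9.54, 18.9 and 8.52 CPM in Criollo MeJA. Stupicke libraries held 25, 27.6 and 38.6 CPM in mock and 35.2, 44.6 and 42.6 CPM under MeJA. The Stupicke groups overlapped, and every Stupicke library, mock or MeJA, was above every Criollo library. MeJA raised the gene 13.7-fold in Criollo (adjusted p 9.55e-05), the Stupicke value was 1.34-fold (adjusted p 0.649), and the log2 difference was -3.35 (SE 0.45, 95% interval -4.33 to -2.37, adjusted p 0.0393). In mock seeds the gene was 33.8-fold higher in Stupicke than in Criollo (adjusted p 1.72e-06), a comparison that uses the same Criollo mock libraries as the difference of responses.

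Hexokinase 3 (Solyc12g008510.2.1), of the enzymes that phosphorylate glucose and other hexoses, showed the smallest of the called differences. It measured 78.0, 83.3 and 81.1 CPM in Criollo mock, 118, 113 and 104 CPM in Criollo MeJA, 118, 121 and 121 CPM in Stupicke mock and 106, 107 and 112 CPM in Stupicke MeJA. The groups were apart within each genotype and moved in opposite directions, although only the Criollo change passed the test. The Criollo rise was 1.38-fold (adjusted p 0.000585), the Stupicke value was 0.905-fold (adjusted p 0.373), and the log2 difference was -0.61 (SE 0.08, 95% interval -0.79 to -0.43, adjusted p 0.0393). Under MeJA the genotypes did not pass the test of a difference in level (log2 -0.04, adjusted p 0.608).

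A protein of the NAD(P)-binding Rossmann-fold superfamily (Solyc06g083480.4.1), a fold shared by many dehydrogenases and reductases, rose in both genotypes, and rose less in Stupicke. Its levels were 10.5, 13.1 and 10.3 CPM in Criollo mock and 48.8, 54.8 and 65.0 CPM in Criollo MeJA. In Stupicke they were 15.6, 15.6 and 16.9 CPM in mock and 27.3, 31.9 and 27.4 CPM under MeJA. No groups overlapped, and Stupicke lay above Criollo in mock and below it under MeJA. The rise was 4.97-fold in Criollo (adjusted p 1.16e-06) against 1.81-fold in Stupicke (adjusted p 0.00278), a log2 difference of -1.46 (SE 0.17, 95% interval -1.84 to -1.09, adjusted p 0.0393). It was the called gene that was most often called again, in 4 of the 12 fits that left out 1 library.

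The last pair of called genes had the same layout: low in Criollo mock, and higher in the other 3 groups. A receptor protein kinase (Solyc03g006770.4.1), of the class that carries signals from the cell surface, measured 1.10, 0.81 and 1.00 CPM in Criollo mock (18 to 24 reads), 3.39, 4.14 and 3.65 CPM in Criollo MeJA, 4.30, 4.30 and 4.80 CPM in Stupicke mock and 5.30, 6.32 and 5.13 CPM in Stupicke MeJA. It rose 3.82-fold in Criollo (adjusted p 4.2e-05) against 1.25-fold in Stupicke (adjusted p 0.475), a log2 difference of -1.61 (SE 0.22, 95% interval -2.11 to -1.12, adjusted p 0.0436). The groups were apart in both genotypes for this gene and for the next.

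The second, a DUF789 domain-containing protein (Solyc12g010730.2.1) whose function the description does not give, was the gene just inside the threshold. It measured 5.89, 6.08 and 6.84 CPM in Criollo mock, 15.8, 14.6 and 15.1 CPM in Criollo MeJA, 13.6, 14.2 and 16.8 CPM in Stupicke mock and 18.3, 18.7 and 18.4 CPM in Stupicke MeJA. It rose 2.42-fold in Criollo (adjusted p 1.78e-05) against 1.24-fold in Stupicke (adjusted p 0.162), a log2 difference of -0.96 (SE 0.14, 95% interval -1.26 to -0.66, adjusted p 0.0444). The receptor protein kinase and the DUF789 protein were called in 0 of the 12 fits that left out 1 library.

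**Figure D1:**
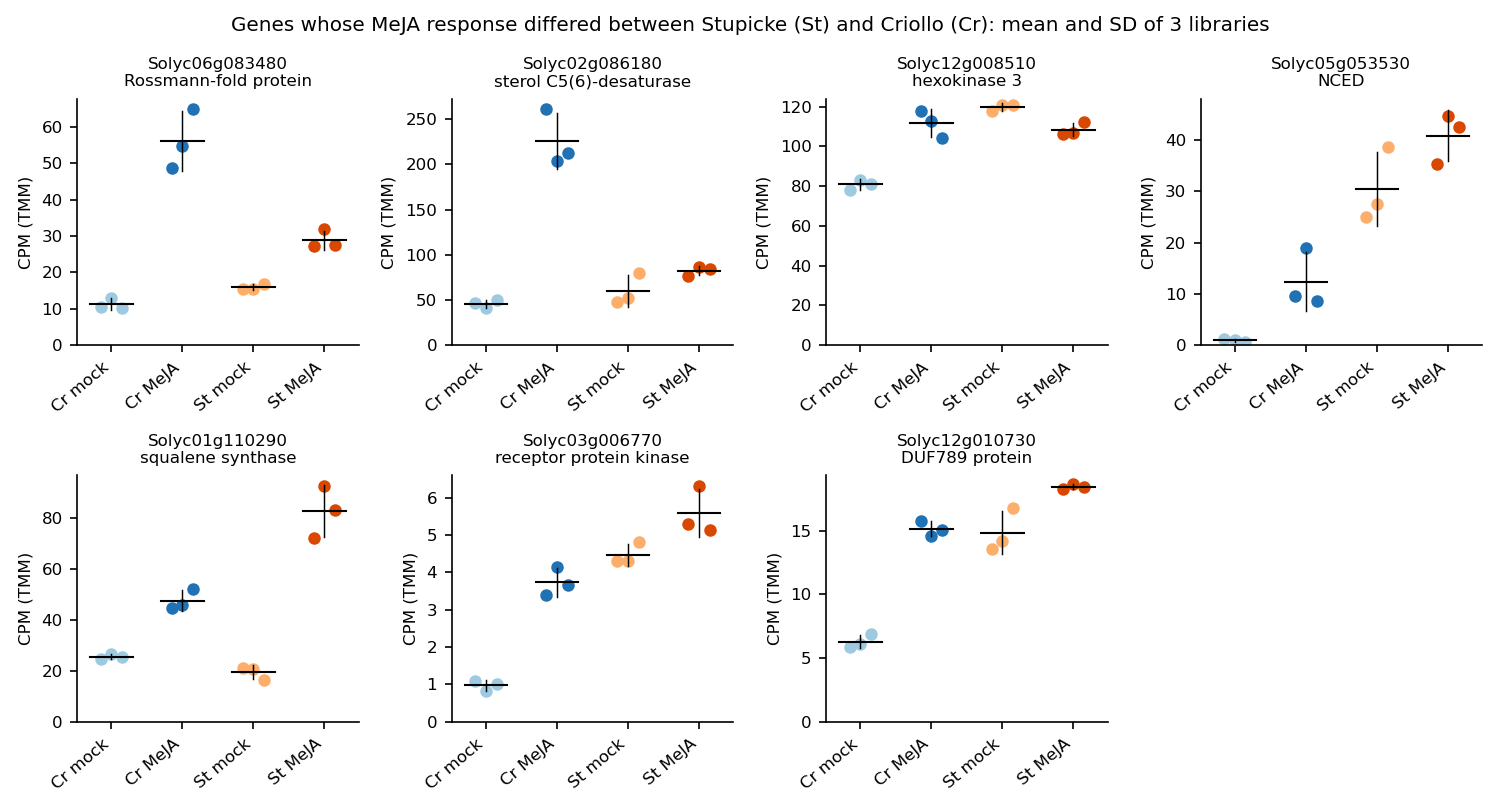
Level of the 7 genes that differed in MeJA response, in CPM (axis from 0), in mock and MeJA seeds of Criollo and Stupicke. Points are the 3 libraries of a group, lines their mean and bars the SD. Squalene synthase rose more in Stupicke (72.0 to 92.4 CPM under MeJA), and the other 6 genes rose more in Criollo.

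In the strip plots of these genes the 6 with a lower response in Stupicke shared 2 features. All 6 rose in Criollo, and 1 of the 6, the Rossmann-fold protein, was also called in Stupicke. For 5 of the 6 the Stupicke mock level was called higher than the Criollo mock level, against 27.3% of all genes tested (56.9% were called in either direction and 29.6% lower in Stupicke). Both counts draw on the Criollo mock libraries that enter the difference itself, so they describe the layout of the values and are not separate evidence.

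The gene just outside the threshold encodes an alpha/beta-hydrolase (Solyc03g123390.4.1), of a broad family of esterases and lipases. It measured 6.76, 5.36 and 5.25 CPM in Criollo mock, 27.3, 24.8 and 26.5 CPM in Criollo MeJA, 9.19, 8.30 and 11.8 CPM in Stupicke mock and 16.5, 12.4 and 9.89 CPM in Stupicke MeJA. Its log2 difference was -1.77 (95% interval -2.33 to -1.20) with an adjusted p of 0.0520, so a cut at 0.05 separates values of the same size.

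Of the 20 genes with the smallest p for the difference, 16 had a lower and 4 a higher response in Stupicke. The Criollo response was called higher for 18 of them and lower for 2, beside 5.02% and 2.44% of all genes tested. The Stupicke response was called higher for 4, beside 1.63% of all genes. These responses enter the ranking itself, so the counts describe the layout of the values and are not separate evidence. The genes of rank 9 to 20 had adjusted p between 0.0653 and 0.0843, so edgeR called none of these 12, whereas DESeq2 called all 12. A 2-oxoglutarate-dependent dioxygenase (Solyc07g043420.3.1), of the enzymes that oxidise hormones and specialised metabolites, was the most abundant of them. It measured 1327, 1416 and 1366 CPM in Criollo mock, 7581, 5509 and 8143 CPM in Criollo MeJA, 825, 862 and 1031 CPM in Stupicke mock and 1187, 2021 and 1381 CPM in Stupicke MeJA. The groups were apart in both genotypes, with a log2 difference of -1.61 (adjusted p 0.0687).

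An aldehyde dehydrogenase (Solyc12g007030.3.1), of the enzymes that oxidise aldehydes to acids, had opposite signs in the 2 genotypes. It measured 67.5, 67.4 and 48.1 CPM in Criollo mock and 108, 171 and 139 CPM in Criollo MeJA. The Stupicke values were 671, 576 and 814 CPM in mock and 418, 532 and 489 CPM under MeJA. Groups were apart in each genotype. The log2 response was 1.19 in Criollo (adjusted p 0.00324), the Stupicke value was -0.52 (adjusted p 0.275), and the log2 difference was -1.71 (adjusted p 0.0653).

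Of the 4 genes of the 20 with a positive difference, squalene synthase was called by edgeR. The other 3 were called by DESeq2 and not by edgeR as reported. Voom with sample quality weights also called them, as did further settings for some. The sugar transporter protein 1 gene (Solyc02g079220.4.1), for a hexose carrier of the plasma membrane, fell in Criollo from 9.36, 7.61 and 8.12 CPM to 3.20, 2.98 and 4.40 CPM, with Stupicke values of 1.11, 1.45 and 0.594 CPM in mock and 2.14, 1.70 and 2.98 CPM under MeJA. Its groups were apart in both genotypes, and its log2 difference was 2.34 (adjusted p 0.0843). The other 2, a B2-type cyclin dependent kinase and the pathogenesis-related protein P23, are given with genes of similar function.

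The genes that MeJA raised were largely in the same direction in the other genotype. The lists of raised genes shared 242 genes, 25.2% of the Criollo list and 77.3% of the Stupicke list, and the lists of lowered genes shared 11, 2.36% of the Criollo list and 32.4% of the Stupicke list. No gene was called in opposite directions. Of the 962 genes raised in Criollo, 78.3% were above 0 in Stupicke, where their median log2 response was 0.25 against 0.82 in Criollo. Of the 313 raised in Stupicke, 97.8% were above 0 in Criollo, with medians of 1.12 in Criollo and 1.27 in Stupicke. In each case the genotype whose values chose the list has the inflated median. Over all genes tested the median response was 0.00 in Criollo and -0.01 in Stupicke, and 47.9% of genes were above 0 in Stupicke and 50.3% in Criollo. The 467 genes lowered in Criollo had a median of -0.67 there and -0.12 in Stupicke. For 67.3% of all genes tested the 95% interval of the difference lay within 1 log2 unit of 0, and the same held for 49.6% of the 242 genes raised in both.

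**Figure D2:**
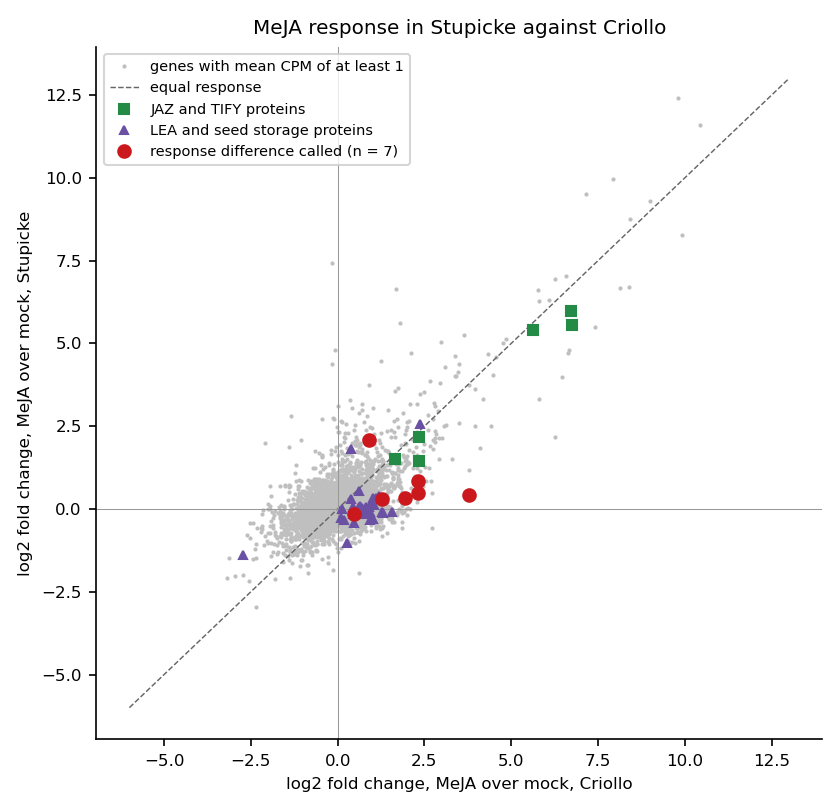
Log2 response to MeJA in Criollo (horizontal) and Stupicke (vertical), 1 point per gene with a mean of at least 1 CPM; the dashed line marks equal responses. JAZ and TIFY genes (green squares) lie near the line at high values in both genotypes, LEA and seed storage genes (purple triangles) lie mostly below it, and 6 of the 7 called genes (red) lie below it. Values of genes close to 0 in mock depend on the small count added before the logarithm.

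The scatter of responses shows most raised genes on the positive side of both axes. Gene groups were formed from the descriptions in the supplementary tables of the study, which cover 2598 of the genes tested. Those descriptions belong mostly to genes the study picked from these same samples. A group's counts are therefore not independent evidence of its direction, and the all-gene shares set beside them are not a matched baseline. Over the 2598 described genes the median log2 difference was -0.01. An unadjusted p under 0.05 for the difference was reached by 1044 of them, 636 below 0, against 2673 of all 19149 genes tested. Of 42 groups, 3 contained a called gene, and the 12 groups with at least 20 genes tested had median differences from -0.69 to 0.48, against 0.00 over all genes tested.

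**Figure D3:**
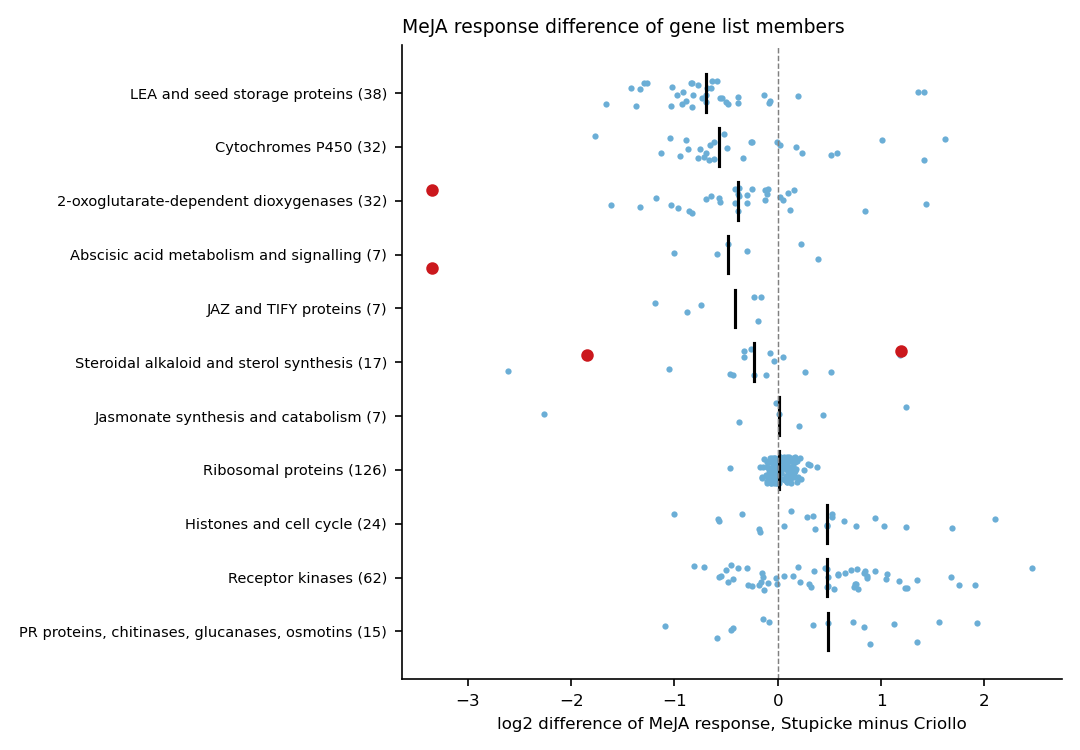
Log2 MeJA response difference (Stupicke minus Criollo) of the members of each gene group. Points are members with a mean of at least 1 CPM, the black bar is the median of all members tested, and called genes are red. The epoxycarotenoid dioxygenase stands in 2 groups. The group labelled 2-oxoglutarate-dependent dioxygenases also holds other dioxygenases, of which it is one. The medians of the groups drawn run from -0.69 for LEA and seed storage proteins to 0.49 for PR proteins and chitinases.

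Among JAZ genes and genes of jasmonate synthesis edgeR called no difference, and DESeq2 called 1 of 7 in each group. All 7 JAZ and TIFY genes tested rose in Criollo and 6 of 7 in Stupicke, beside 5.02% and 1.63% of all genes. Here and in the groups below such shares are no matched baseline, since the study picked most described genes on these samples. JAZ3 (Solyc07g042170.3.1), a repressor of jasmonate signalling, measured 43.1, 53.2 and 39.2 CPM in Criollo mock and 216, 248 and 225 CPM in Criollo MeJA. Stupicke seeds gave 42.3, 37.7 and 35.9 CPM in mock and 169, 185 and 164 CPM under MeJA. Mock and MeJA were far apart in both genotypes, at log2 2.35 and 2.16, with an interval of the difference from -0.52 to 0.14. The JAZ gene Solyc03g118540.4.1 rose by log2 1.66 and 1.5 (interval of the difference -0.44 to 0.11). For JAZ2 (Solyc01g005440.4.1) the log2 responses were 2.33 in Criollo and 1.46 in Stupicke, and the difference of -0.87 (interval -1.40 to -0.35) had an adjusted p of 0.218 (0.0372 with DESeq2). The estimate was below 0 for all 7 (for 6 with limma voom or log2(TPM + 0.1)), but only 1 of the 7 had an unadjusted p under 0.05, and 2 had an interval within 1 log2 unit of 0. TIFY 10A (Solyc03g122190.3.1), chosen after its values were seen, was nearly absent from mock seeds, at 0.411, 0.54 and 0.0912 CPM in Criollo and 0.796, 0.65 and 0.486 CPM in Stupicke. Under MeJA it reached 38.2, 47.2 and 27.4 CPM in Criollo and 42.2, 46.8 and 34.6 CPM in Stupicke, levels that overlapped between the genotypes.

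Of 7 genes of jasmonate synthesis, 5 rose in Criollo and 6 in Stupicke, again beside 5.02% and 1.63% of all genes, and 4 had an interval of the difference within 1 log2 unit of 0. The lipoxygenase, the reductase and the cyclase named next were chosen after their values were seen. A lipoxygenase (Solyc05g014790.3.1), of the enzymes that oxygenate linolenic acid at the start of the pathway, measured 13.2, 13 and 13.5 CPM in Criollo mock and 56.1, 70.6 and 47.1 CPM under MeJA. In Stupicke it measured 12.5, 13.3 and 13.5 CPM in mock and 47.5, 74.1 and 48.7 CPM under MeJA. The genotypes overlapped in each condition, and the log2 responses of 2.13 and 2.11 differed by -0.02 (interval -0.56 to 0.53). The responses of 12-oxophytodienoate reductase 3 (Solyc07g007870.3.1), which acts later in the pathway in peroxisomes, were 1.54 and 1.55 (interval of the difference -0.53 to 0.54). Allene oxide cyclase (Solyc02g085730.3.1), which sets the stereochemistry of the jasmonate ring, rose by log2 1.47 and 1.68 (interval of the difference -0.27 to 0.69), from a mock level that was lower in Stupicke by log2 -1.62.

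An allene oxide synthase (Solyc04g079730.1.1), which makes the substrate of that cyclase, had the most negative difference of the group. It measured 0.548, 0.81 and 0.502 CPM in Criollo mock, 8.97, 9.70 and 13.4 CPM in Criollo MeJA, 1.43, 0.70 and 1.19 CPM in Stupicke mock and 2.86, 4.67 and 4.29 CPM in Stupicke MeJA. It rose in both genotypes, and the Criollo MeJA libraries were the highest. The log2 responses were 4.09 and 1.83 and the difference was -2.26 (interval -3.20 to -1.32), with an adjusted p of 0.126 in edgeR and 0.000848 in DESeq2. The most positive difference of the group was 1.24, for Solyc01g099160.4.1 (edgeR, adjusted p 0.34).

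Among 17 genes described as sterol enzymes or sterol-handling proteins, 12 rose and 1 fell in Criollo, and 6 rose in Stupicke, of which 5 rose in both, while 5.02% of all genes rose in Criollo and 1.63% in Stupicke. The difference was called for squalene synthase and the C5(6)-desaturase (5 of the 17 with DESeq2), the median difference was -0.23, and 11 of the 17 intervals lay within 1 log2 unit of 0. Without Stupicke MeJA replicate 2, 3 rose in Stupicke in place of 6. Between these enzymes in the pathway, and named after their values were seen, squalene epoxidase (Solyc04g077440.4.1) rose by log2 0.65 in Criollo and 0.71 in Stupicke, with an interval of the difference from -0.16 to 0.27. Delta(14)-sterol reductase (Solyc09g009040.3.1) rose by log2 0.78 and 0.55. The 7-dehydrocholesterol reductase (Solyc06g074090.3.1), which follows the C5(6)-desaturase, rose by log2 0.67 and 0.55, with a difference of -0.12. All 3 of these intervals lay within 1 log2 unit of 0.

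Methylsterol monooxygenase 1-2 (Solyc01g091320.3.1), which removes methyl groups from the sterol skeleton, measured 1.64, 1.84 and 0.958 CPM in Criollo mock, 25.1, 12.3 and 24.12 CPM in Criollo MeJA, 2.18, 1.95 and 0.81 CPM in Stupicke mock and 2.86, 5.04 and 3.30 CPM in Stupicke MeJA. The 3 Criollo MeJA libraries were the highest, and the difference of -2.61 was not called (adjusted p 0.156). The sterol 22-desaturase gene (Solyc02g070580.1.1), for the enzyme that makes stigmasterol from sitosterol, had values of 15.6, 17.3 and 13.4 CPM in Criollo mock and 9.73, 12.2 and 10.3 CPM under MeJA, and in Stupicke 4.83, 4.20 and 3.29 CPM in mock and 7.96, 5.63 and 5.86 CPM under MeJA. The groups were apart and in opposite order in the 2 genotypes, but neither response passed the test (log2 -0.53, adjusted p 0.072, and log2 0.66, adjusted p 0.12) and the difference of 1.18 had an adjusted p of 0.147.

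Genes of seed maturation made up the group with the most negative median among those with at least 20 genes tested. Of 38 LEA and seed storage genes tested, 0 were called for the difference by edgeR and 8 by DESeq2. The median log2 difference was -0.69, 34 of 38 were below 0, and 24 had an unadjusted p under 0.05, of which 23 were below 0. In Criollo 20 rose and 2 fell (5.02% and 2.44% of all genes), and in Stupicke 1 rose and 1 fell (1.63% and 0.178% of all genes). In mock seeds 30 of the 38 were already higher in Stupicke than in Criollo and 3 were lower, with a median log2 of 1.5, beside 27.3% and 29.6% of all genes. The summed level of the group was 15130, 11930 and 14911 CPM in Criollo mock, 22658, 36275 and 20873 CPM in Criollo MeJA, 73584, 64810 and 79784 CPM in Stupicke mock and 62039, 85019 and 68202 CPM in Stupicke MeJA. The Criollo groups were apart, with MeJA replicate 2 highest, the Stupicke groups overlapped, and every Stupicke library was above every Criollo library.

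The LEA and storage counts moved with single libraries. Without Criollo MeJA replicate 2, the highest of its group, the median difference was -0.52, 16 genes were below 0 at an unadjusted p under 0.05, and 7 rose in Criollo in place of 20. The number that rose in Criollo was 4 without Criollo mock replicate 2, 6 without Criollo mock replicate 1, 12 without Criollo mock replicate 3 and 13 without Criollo MeJA replicate 1. The median difference stayed between -0.85 and -0.52 over the 12 libraries left out in turn.

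Within the group, a vicilin-like antimicrobial peptide precursor (Solyc09g065470.3.1), of the vicilin storage protein family, measured 547, 497 and 498 CPM in Criollo mock and 1069, 1665 and 1041 CPM in Criollo MeJA. Stupicke libraries held 4626, 3432 and 4759 CPM in mock and 3372, 4709 and 3659 CPM under MeJA. The Criollo groups were apart and the Stupicke groups overlapped at a level several times higher. The gene rose in Criollo by log2 1.29 (adjusted p 0.00217), the Stupicke value was -0.13, and the difference was -1.42 (interval -2.01 to -0.83, adjusted p 0.126). LEA protein D-34 (Solyc09g082110.4.1), of a family that protects proteins and membranes during drying, measured 79.0, 56.2 and 79.5 CPM in Criollo mock and 171, 328 and 138 CPM in Criollo MeJA. The Stupicke values were 833, 636 and 823 CPM in mock and 657, 774 and 719 CPM under MeJA. Its layout was the same, with a log2 difference of -1.66 (adjusted p 0.157). The most abundant storage transcript named here, a vicilin (Solyc09g082340.2.1) chosen after its values were seen, was between 1904 and 9377 CPM in the 6 Criollo libraries and between 30350 and 45020 CPM in the 6 Stupicke libraries, with a log2 difference of -1.37 (adjusted p 0.222).

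Of 7 genes of ABA metabolism and signalling, the epoxycarotenoid dioxygenase was called for the difference (3 genes with DESeq2), 3 rose in Criollo against 5.02% of all genes, 1 rose in Stupicke against 1.63%, and the median difference was -0.48. A factor described as ABSCISIC ACID-INSENSITIVE 5-like protein 7 (Solyc01g108080.4.1), of the bZIP factors that carry the ABA signal, measured 17.8, 15.53 and 17.3 CPM in Criollo mock and 27.6, 39.4 and 20.61 CPM in Criollo MeJA. Stupicke seeds gave 48.3, 41.0 and 53.6 CPM in mock and 40.7, 45.6 and 36.5 CPM under MeJA. It rose in Criollo by log2 0.79 (adjusted p 0.0331), the Stupicke groups overlapped, and the difference of -1.01 was not called (adjusted p 0.207). The ABA receptor gene PYL8 (Solyc08g082180.3.1), chosen after its values were seen, rose in Criollo by log2 0.51, with a Stupicke value of -0.08 and a difference of -0.59 (interval -0.89 to -0.29, adjusted p 0.164). Both genes were higher in Stupicke than in Criollo in mock seeds, by log2 1.5 and 1.48. A further factor described as ABSCISIC ACID-INSENSITIVE 5-like protein 5 (Solyc11g044560.3.1) differed from these, with a log2 response of 0.36 in Criollo and 0.58 in Stupicke, where it rose (adjusted p 0.0124).

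Heat shock proteins, chaperones that also accumulate as seeds mature, had a median difference of 0.01 over 23 genes, and with DESeq2 of -0.0026, with none called by edgeR and 2 by DESeq2. Stupicke MeJA replicate 3 stood out in this group. A class II heat shock protein (Solyc08g062340.3.1) measured 29.4 CPM in that library and 1.51 to 3.56 CPM in the other 11, and a mitochondrial small heat shock protein (Solyc08g078700.2.1) measured 172 CPM there and 5.88 to 16.4 CPM in the others. Their positive differences of 2.48 and 2.56 (adjusted p 0.394 and 0.37) were 0.17 and 0.20 without that library.

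The cytochrome P450 and dioxygenase groups had negative median differences. That of peroxidases and glutathione S-transferases was -0.03 over 21 genes, and ran from -0.16 to 0.12 with 1 library left out. Of 32 cytochrome P450 genes, which oxidise hormones, sterols and defence compounds, 19 rose and 3 fell in Criollo, and 8 rose and 1 fell in Stupicke, with a median difference of -0.57, none called by edgeR and 8 called by DESeq2. Of 32 genes described as 2-oxoglutarate-dependent or other dioxygenases, 22 rose in Criollo, and 8 rose and 1 fell in Stupicke, with a median difference of -0.38, and the called gene among them was the epoxycarotenoid dioxygenase (8 genes with DESeq2). Over all genes 5.02% rose and 2.44% fell in Criollo, and 1.63% rose and 0.178% fell in Stupicke. Leaving out 1 library moved the number that rose in Criollo between 11 and 20 for the P450 genes, with 11 without Criollo mock replicate 2 and 12 without Criollo mock replicate 1, and between 14 and 23 for the dioxygenases, lowest without Criollo mock replicate 2 or Criollo MeJA replicate 2. A cytochrome P450 (Solyc04g078340.3.1) measured 0.457, 0.225 and 0.593 CPM in Criollo mock, 5.01, 4.29 and 3.28 CPM in Criollo MeJA, 5.26, 6.35 and 7.66 CPM in Stupicke mock and 15.9, 22.1 and 17.3 CPM in Stupicke MeJA. It rose in both genotypes, by log2 3.29 and 1.52, from mock levels that did not overlap, and the difference of -1.77 had an adjusted p of 0.157.

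**Figure D4:**
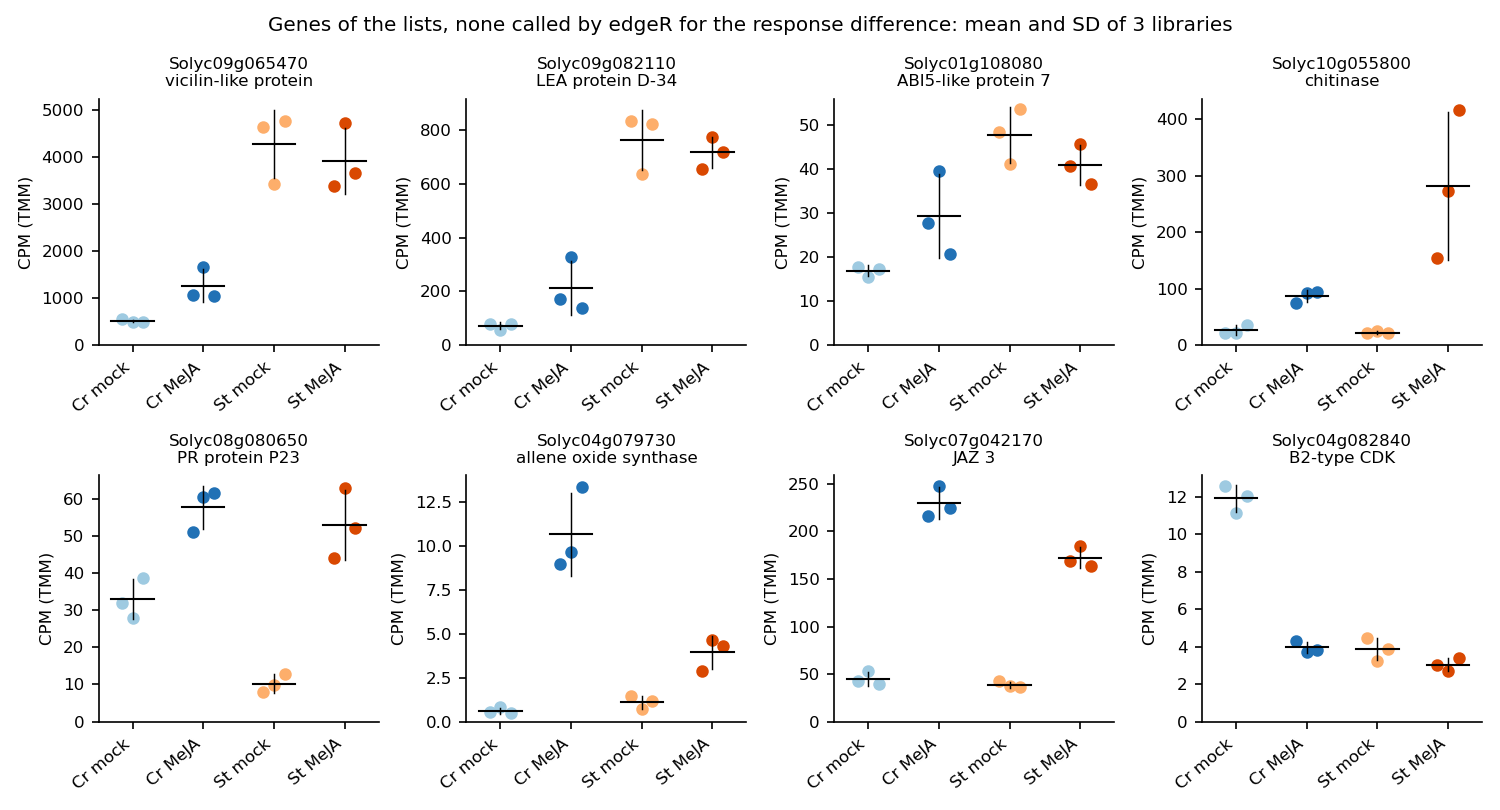
Level of 8 genes of the functions described, in CPM (axis from 0), in mock and MeJA seeds of Criollo and Stupicke. Points are the 3 libraries of a group, lines their mean and bars the SD. None of these 8 genes was called for the difference by edgeR and all but JAZ3 were by DESeq2. JAZ3 rises by log2 2.35 and 2.16 and the chitinase rises to 416 CPM in Stupicke.

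The panels of single genes include defence proteins. Of 15 pathogenesis-related proteins, chitinases, glucanases and osmotins, 4 rose in Criollo and 6 in Stupicke (5.02% and 1.63% of all genes), with a median difference of 0.49, none called by edgeR and 3 called by DESeq2. The number that rose in Criollo was 2 without Criollo mock replicate 1 or 3, and the median difference was 0.23 without Stupicke mock replicate 3 and 0.98 without Criollo MeJA replicate 3. A chitinase (Solyc10g055800.2.1), of the enzymes that cut the chitin of fungal walls, measured 21.6, 20.8 and 36.2 CPM in Criollo mock, 75.0, 91.5 and 94.6 CPM in Criollo MeJA, 20.7, 25.2 and 20.8 CPM in Stupicke mock and 154, 274 and 416 CPM in Stupicke MeJA. The mock levels of the genotypes overlapped, and all 3 Stupicke MeJA libraries were above all others. The gene rose by log2 1.73 in Criollo (adjusted p 0.00725) against 3.66 in Stupicke (adjusted p 9.71e-05), and the difference of 1.93 (interval 0.98 to 2.88) had an adjusted p of 0.157. The next-numbered chitinase gene Solyc10g055810.2.1, chosen after its values were seen, had log2 responses of 0.38 in Criollo (adjusted p 0.0909) against 1.27 in Stupicke (adjusted p 0.000264). Reads of such close copies may have been shared between them by the quantification.

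The pathogenesis-related protein P23 gene (Solyc08g080650.3.1), for a thaumatin-like protein of the osmotin class, is not among these 15, because its description did not match the search words. It measured 32.1, 28.0 and 38.8 CPM in Criollo mock and 51.1, 60.5 and 61.8 CPM in Criollo MeJA. In Stupicke it measured 7.86, 9.85 and 12.9 CPM in mock and 44.2, 63.0 and 52.2 CPM under MeJA. It rose in both genotypes from unlike mock levels to MeJA levels that overlapped (log2 0.81 and 2.38, difference 1.57, adjusted p 0.0687). The pathogenesis-related protein STH-2-like gene (Solyc09g090970.4.1) had the most negative difference of the 15 genes, -1.09 (adjusted p 0.164), and rose by log2 1.22 in Criollo. Of 7 proteinase inhibitors tested, proteins that block the digestive enzymes of attackers, 5 rose in each genotype (5.02% of all genes in Criollo and 1.63% in Stupicke), with no difference called by edgeR and 1 by DESeq2. Their differences ran from -1.88 to 2.89, with 2 of the 7 below 0. The median difference was 0.42, and ran from -0.14 to 1.15 with 1 library left out. A cysteine proteinase inhibitor (Solyc12g098607.1.1) measured 12.5, 9.90 and 10.8 CPM in Criollo mock, 26.4, 46.9 and 25.8 CPM in Criollo MeJA, 59.3, 53.4 and 96.5 CPM in Stupicke mock and 52.6, 68.8 and 48.3 CPM in Stupicke MeJA. It rose in Criollo by log2 1.57, and its difference of -1.88, the most negative of the 7, had an adjusted p of 0.147 (0.000194 with DESeq2).

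Of 24 cell cycle genes and histones, 10 fell and 2 rose in Criollo (2.44% and 5.02% of all genes) and 0 changed in Stupicke (1.81% of all genes), with a median difference of 0.48, none called by edgeR and 2 by DESeq2. The B2-type cyclin dependent kinase (Solyc04g082840.4.1), a kinase of dividing plant cells, measured 12.6, 11.1 and 12 CPM in Criollo mock, 4.29, 3.74 and 3.84 CPM in Criollo MeJA, 4.46, 3.25 and 3.89 CPM in Stupicke mock and 3.01, 2.71 and 3.40 CPM in Stupicke MeJA. The Criollo mock libraries were the highest, and the other 3 groups lay close together. The gene fell in Criollo by log2 1.59 (adjusted p 3.65e-05), the Stupicke value was -0.34, and the difference of 1.24 had an adjusted p of 0.0685. The B1-type kinase (Solyc10g074720.3.1) also fell in Criollo, by log2 1.42 (adjusted p 0.0124), with a Stupicke value of 0.26 and a difference of 1.68 (adjusted p 0.219). Of 62 receptor kinases in the group of that name, 26 fell and 15 rose in Criollo, and 1 fell and 7 rose in Stupicke (0.178% and 1.63% of all genes), with a median difference of 0.48, none called by edgeR and 5 by DESeq2. The called receptor protein kinase was not in that group, whose patterns its description did not match.

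These lowered genes too moved with single libraries. Without Criollo MeJA replicate 2, 2 receptor kinases and 3 cell cycle genes fell in Criollo. Without Criollo mock replicate 2 the numbers were 3 and 2, without Criollo mock replicate 1 they were 4 and 4, without Criollo MeJA replicate 1 they were 4 and 3, without Criollo mock replicate 3 they were 13 and 7, without Stupicke MeJA replicate 2 or 3 the receptor kinases numbered 17, and without Stupicke mock replicate 2 they numbered 14. The median differences of both groups stayed above 0 in each of these fits.

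Among 14 tested genes that the study names edgeR called no difference, and DESeq2 called that of the EIN3-binding F-box gene Solyc12g009560.2.1 (log2 -0.66, adjusted p 0.0338). The hydroxylase gene Solyc04g078325, which the study also names, is not among these 14. The defensin Solyc07g007755.1.1, of a family of small antifungal peptides, measured 0.411, 0.18 and 0.319 CPM in Criollo mock (4 to 9 reads) and 1.38, 0.96 and 1.22 CPM in Criollo MeJA. Stupicke libraries held 0.69, 0.85 and 0.27 CPM in mock and 2.04, 2.97 and 3.77 CPM under MeJA. It rose in both genotypes, by log2 1.95 and 2.26, and the Stupicke MeJA libraries were the highest, with a difference of 0.31 (interval -1.03 to 1.65) that this depth leaves wide. The defensin Solyc07g007710.4.1 rose in Criollo by log2 1.14 (adjusted p 0.0233), with a Stupicke value of 0.28 and a difference of -0.86 (adjusted p 0.321). The defensin Solyc07g007750.3.1 had values of -0.22 and 0.07, and the defensin-like Solyc04g072470.4.1 had values of 0.87 and 0.15, none past the test. The WRKY factors 37 (Solyc01g079360.4.1) and 39 (Solyc03g116890.3.1), DNA-binding regulators of defence genes, had differences of -0.88 and -1.45 that were not called (adjusted p 0.349 and 0.357). The ethylene receptor ETR4 (Solyc06g053710.3.1) rose by log2 1.59 and 1.61, a difference of 0.02.

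Ribosomal protein genes served as a group of abundant transcripts with a small MeJA response (median log2 -0.08 in Criollo and -0.07 in Stupicke). Their levels differed between the genotypes. In mock seeds 104 of the 126 were called lower in Stupicke and 3 higher, beside 29.6% and 27.3% of all genes. All 126 had an interval of the difference within 1 log2 unit of 0, their median difference was 0.01, and 5 had an unadjusted p under 0.05. On the TPM scale the median difference of this group was 0.13, beside 0.12 for all genes, so the position of 0 depended on the scaling by about this much.

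**Figure D5:**
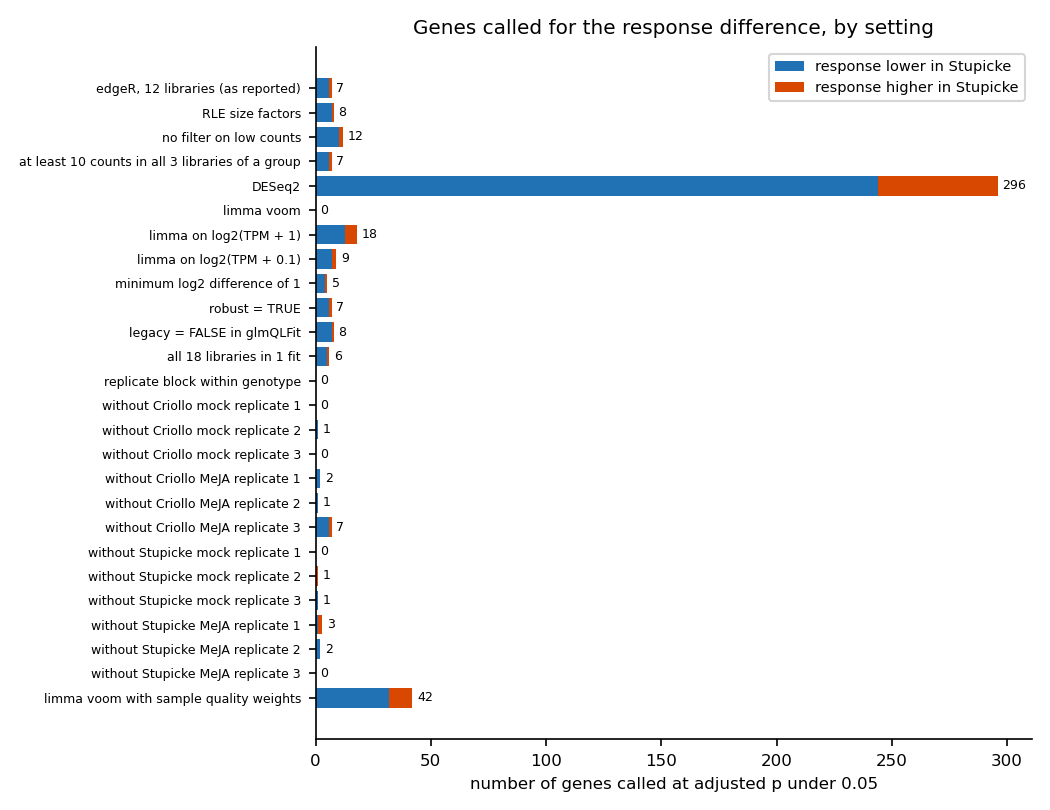
Number of genes called for the MeJA response difference under each alternative setting and with each of the 12 libraries left out, with calls above 0 and below 0 shown apart. The counts run from 0 to 7 with 1 library left out and reach 296 with DESeq2.

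The plot of calls by setting shows counts that changed with most choices. Over the 12 fits that left out 1 library, the squalene synthase difference ran from 1.08 to 1.28, the C5(6)-desaturase difference from -1.99 to -1.58, the epoxycarotenoid dioxygenase difference from -3.56 to -2.91 and the hexokinase 3 difference from -0.66 to -0.57. With limma on log2(TPM + 1) the difference was -1.99 for the epoxycarotenoid dioxygenase Solyc05g053530.1.1, in place of -3.35, and -0.62 for the receptor protein kinase Solyc03g006770.4.1, in place of -1.61. In the fits without 1 library the adjusted p ran from 0.0141 to 0.156 over all 7 genes.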

How the data were processed

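RNA was sequenced from mock- and MeJA-primed seeds of each genotype. Per the labels and the study's methods, the authors made poly(A) libraries, sequenced them on a BGISEQ-500 and quantified transcripts against the ITAG4.0 annotation with Salmon (1.2), and the deposited estimated counts (expected counts that need not be whole) were rounded to whole numbers here. The authors also deposited the same estimates as TPM (transcript abundances corrected for length and brought to a common total), which were used only as an alternative. Groups came from the labels, and the study describes its biological replicates as sets of 30 seeds. It does not state that they came from separate seed lots or harvests. The 12 Criollo and Stupicke libraries were fitted in edgeR (4.0.16, R 4.3.3) with 1 mean per group: filterByExpr kept 19149 of 33976 genes, TMM normalised the totals, and the quasi-likelihood test was adjusted by Benjamini-Hochberg over all genes tested, with a threshold of 0.05. CPM values are counts relative to TMM-scaled library totals. The scripts were tested on simulated data. Alternatives used DESeq2 (1.42.0), limma (3.58.1), other filters and scalings, and each library left out in turn.

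The members and gene lists were chosen with earlier results of these data known. List patterns were matched to the descriptions in the study's supplementary tables, because 0 identifiers matched the RefSeq table at hand, and the patterns for LEA proteins and thionins were corrected after values were seen. Genes were named by rule: those called, the 20 with the smallest p, the gene on each side of the threshold, the extreme members of each list among those averaging 1 CPM or more, and genes that the study names; 7 more were added after their values were seen. Sequences and coordinates were not used here. Closely related genes can share reads in the estimates.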

Additional observations from a re-analysis of the deposited data

Results flagged for a closer look

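The response to MeJA differed between the genotypes for 7 genes by the test of the difference itself (edgeR, adjusted p between 0.0393 and 0.0444). As the log2 response in Stupicke minus that in Criollo, the values were -1.46 for the Rossmann-fold protein Solyc06g083480.4.1, -1.85 for the sterol C5(6)-desaturase Solyc02g086180.4.1, -0.61 for hexokinase 3 (Solyc12g008510.2.1), -3.35 for the 9-cis-epoxycarotenoid dioxygenase Solyc05g053530.1.1, 1.19 for squalene synthase (Solyc01g110290.3.1), -1.61 for the receptor protein kinase Solyc03g006770.4.1 and -0.96 for the DUF789 protein Solyc12g010730.2.1. Groups of 3 libraries are too small for a search for single outlying samples.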

How the results depend on the processing

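The difference of responses, 7 calls as reported, gave 8 with RLE size factors, 12 without a filter on low counts, 7 with a stricter filter, 296 with DESeq2, 0 with limma voom, 18 (3 of the 7 among them) and 9 with limma on log2(TPM + 1) and log2(TPM + 0.1), 5 with a minimum log2 difference of 1, and 6 with all 18 libraries in the fit, of which 3 are among the 7. Sample quality weights in voom, chosen after seeing the data, gave 42. All 296 DESeq2 calls had the same sign and an unadjusted p under 0.05 in edgeR. Leaving out 1 library gave 0 to 7 calls, with at most 4 of the 7 reported genes among them. The Criollo response (1429) moved to 2296 with log2(TPM + 1), 531 with the minimum difference, 877 with 18 libraries and 3897 with quality weights, and to 506 to 2486 with 1 library left out. The Stupicke response (347) moved to 554 with DESeq2, 206 with the minimum difference and 642 with quality weights, and to 225 to 408 with 1 library left out. Stupicke against Criollo gave 3916 calls in mock seeds (10892 as reported, 9248 to 11099 with 1 library left out) and 2086 in MeJA seeds (7128 as reported, 5244 to 7813) with the minimum difference, and 4466 in MeJA seeds with 18 libraries. With log2(TPM + 1) the all-gene median was 0.12 for the difference (0.00 as reported), -0.12 for the Criollo response (0.00) and -0.24 for mock seeds (-0.03), the Criollo split became 693 higher and 1603 lower in place of 962 and 467, the mock split 3188 and 8744 in place of 5222 and 5670, and the MeJA split 2472 and 4581 in place of 3579 and 3549. The causes of these changes were not tested.

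With the replicate number as a block within genotype, the difference gave 0 calls, the 7 genes had adjusted p between 0.0964 and 0.242, and the Criollo response gave 826. The numbers were not taken as pairs, although 3 libraries a group cannot settle whether they are. Mock and MeJA libraries of the same number had deviations correlated at -0.03, -0.29 and -0.27 in Criollo and 0.34, 0.03 and 0.27 in Stupicke. Stupicke mock replicates 1 and 3 correlated best with their own number, and not every library did.

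With 3 libraries a group, p-values measure the spread between sets of 30 seeds, which are not stated to be separate seed lots. Some genes at low CPM, such as the defensin Solyc07g007755.1.1, had wide intervals, while others, such as the called receptor protein kinase, did not. The default of the installed edgeR coincided with 1 planned setting, which gave no separate value. No gene called for the difference changed sign, and 24 of 176 named genes changed sign in at least 1 alternative.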

Other observations

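Apart from the alternative with all 18 libraries, the 6 Micro-Tom libraries entered none of the comparisons above. They were fitted with the other 12 in a fit of all 18. That fit called 3 of the 7 differences between Criollo and Stupicke. In it all 7 genes that differed between Criollo and Stupicke were raised by MeJA in Micro-Tom. There 15.6% of the genes tested were called, a share that covers falls as well as rises. All 7 had also been called higher under MeJA in Criollo, so the all-gene share is no matched baseline for them. The log2 responses in Micro-Tom were 1.54 for the Rossmann-fold protein Solyc06g083480.4.1, 0.87 for the C5(6)-desaturase Solyc02g086180.4.1, 1.21 for hexokinase 3 (Solyc12g008510.2.1) and 2.08 for the epoxycarotenoid dioxygenase Solyc05g053530.1.1. They were 1.55 for squalene synthase (Solyc01g110290.3.1), 1.68 for the receptor protein kinase Solyc03g006770.4.1 and 1.01 for the DUF789 protein Solyc12g010730.2.1. Squalene synthase and the C5(6)-desaturase, whose differences between Criollo and Stupicke had opposite signs, thus both rose in Micro-Tom.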
